A study of Mus musculus with 30 samples.

Results

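The 9 listed genes of the mouse HoxA cluster, Hoxa2, Hoxa3, Hoxa4, Hoxa5, Hoxa6, Hoxa7, Hoxa9, Hoxa10 and Hoxa11, were followed gene by gene along the cluster, as the rows that carry these symbols among the 54134 rows of the count table. They were chosen by position and name, not by a measured value. RNA had been counted in 30 libraries of mouse Bruce4 embryonic stem cells driven in culture towards neuromesodermal progenitors (NMPs), the cells that supply both spinal cord and somites to the growing body axis. All cells received FGF2 from the start. The d2 cells had received FGF2 alone for 48 h, the d2.5 cells the Wnt pathway agonist CHIR99021 for a further 12 h and the d3 cells for 24 h, and from d3 the cells were held for 24 h either in the same medium (d4) or with Gdf11, a TGF-beta family ligand (d4G). Each of these 5 stages was sampled in wildtype and Nr6a1-/- cells, with 3 libraries in each of the 10 groups. The Nr6a1-/- cells carry CRISPR/Cas9 deletions in both alleles of the exon that encodes the DNA-binding domain of Nr6a1, an orphan nuclear receptor, and the libraries stand for 1 clone, so that clone and genotype cannot be told apart.

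Hox genes encode homeodomain transcription factors that give cells their position along the head-to-tail axis. They lie in clusters and are switched on in order, from the 3′ end of a cluster (low group numbers, hindbrain and neck) to the 5′ end (high group numbers, lumbar to tail), as axial progenitors age. Wnt signalling and Cdx factors open the anterior and central genes, and Gdf11 drives the change to the 5′ genes that accompanies the transition from trunk to tail.

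Library totals ran from 1570714 to 3688197 counts, and a count of 0 in a library allows up to 3 counts, or 0.813 to 1.91 CPM (counts scaled to the library total). Levels below are CPM after TMM scaling, given as mean ± SD over the 3 libraries, and come from the 3′ ends of transcripts, so levels are not compared between genes other than as a percent of each gene's own highest group. Of the 9 genes, 7 passed the filter on low counts and were tested with edgeR. Hoxa4 and Hoxa6 did not pass. The labels do not say whether libraries of a group came from separate cultures, so p-values measure the spread between these libraries, which may be technical. Nr6a1 counts do not check the genotype, since the deletion lies upstream of the counted 3′ end: at d4 the mean was 223 ± 33.0 CPM in Nr6a1-/- and 97.6 ± 1.59 CPM in wildtype cells (FDR = 2.27e-10). One library stood apart. The summed level of 6 epiblast markers was 632 CPM in d4 wildtype replicate 2, against 79.8 and 81.7 CPM in the other d4 wildtype libraries and 91.4 to 97.6 CPM in the d4 Nr6a1-/- libraries, and the d4 results of the members and the counts of gene lists at d4 are also given without it below. In the labels, 12 libraries carry an index that another library also carries. They include all 6 d4 libraries, and the wildtype d4 and d4G libraries have the same 3 indices. The sequencing runs are not given, and mixing of reads between these libraries was not tested. In bulk libraries fewer cells that express a gene and less RNA in each cell cannot be told apart.

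The genes are transcribed from the same strand of chromosome 6 and span 79.7 kb between the 3′ ends of Hoxa2 (GRCm38, chr6:52162417-52164831) and Hoxa11 (chr6:52242106-52245810). In a window of 500 bases at the 3′ end, where the reads are expected, Hoxa2, Hoxa5, Hoxa6, Hoxa9, Hoxa10 and Hoxa11 share no annotated exon with another gene. The window of Hoxa7 lies wholly within an exon of the antisense transcript Hoxaas3, and that of Hoxa3 wholly within Hoxaas2. In Hoxa4, 255 of the 500 bases lie in the antisense transcript Gm29430. Whether strand was used in counting is not given in the sources used here, so reads of these 3 genes and of their antisense partners cannot be told apart, and their values are uncertain.

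Stretches upstream of 4 start sites are shown because the results turn on these genes. They were taken from RefSeq (GRCm38.p6, minus strand, read 5′ to 3′ towards the gene), with annotated exons of the same strand left out. Capitals mark matches, on either strand, to TTTATG (a Cdx-type site) or TGATNNAT (a joint site of Pbx and Hox proteins). Hoxa2 is shown at chr6:52164832-52165081, Hoxa7 at chr6:52218712-52218823, Hoxa9 at chr6:52227371-52227620 and Hoxa10 at chr6:52240855-52241104.
Hoxa2: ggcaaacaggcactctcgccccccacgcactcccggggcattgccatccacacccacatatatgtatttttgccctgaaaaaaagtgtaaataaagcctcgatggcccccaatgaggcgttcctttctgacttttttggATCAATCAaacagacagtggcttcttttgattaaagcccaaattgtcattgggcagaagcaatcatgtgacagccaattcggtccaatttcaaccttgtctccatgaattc
Hoxa7: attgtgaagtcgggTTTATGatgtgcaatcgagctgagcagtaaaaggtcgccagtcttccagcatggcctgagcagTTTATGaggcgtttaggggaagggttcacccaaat
Hoxa9: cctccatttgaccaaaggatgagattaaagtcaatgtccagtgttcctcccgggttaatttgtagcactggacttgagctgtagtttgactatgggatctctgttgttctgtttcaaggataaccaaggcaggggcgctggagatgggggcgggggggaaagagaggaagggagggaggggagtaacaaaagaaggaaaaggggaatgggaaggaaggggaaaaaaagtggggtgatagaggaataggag
Hoxa10: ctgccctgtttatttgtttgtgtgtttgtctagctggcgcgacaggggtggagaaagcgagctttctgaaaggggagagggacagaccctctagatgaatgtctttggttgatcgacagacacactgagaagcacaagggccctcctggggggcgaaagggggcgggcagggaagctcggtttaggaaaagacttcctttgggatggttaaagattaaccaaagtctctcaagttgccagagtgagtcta
The 250 bases before the RefSeq start of Hoxa7 hold 2 matches to TTTATG, both in the stretch shown. Of 32851 windows of this length before RefSeq starts, 10.8% hold at least 1 match. The window of Hoxa2 holds 1 match to TGATNNAT, found in 7.68% of windows. The nuclear receptor half-site AGGTCA (14% of windows), its extended form TCAAGGTCA (0.387%) and the Smad palindrome GTCTAGAC (0.167%) were not found in the windows of the 8 members with an entry. A match is a description of the letters and not of binding.

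Hoxa11 held at most 2 counts in any library without Gdf11. The other genes did not appear strictly in cluster order. How many appeared later in Nr6a1-/- cells depended on the rule for detection. The first stage at which all 3 libraries held more than 3 counts was taken as onset, by which 5 of the 9 genes appeared later in Nr6a1-/- cells and 0 earlier. In wildtype cells Hoxa5 passed at d2, Hoxa2 and Hoxa7 at d2.5, Hoxa3 and Hoxa9 at d3, and Hoxa6 and Hoxa10 at d4, while Hoxa11 passed only with Gdf11 and Hoxa4 at no stage. In Nr6a1-/- cells Hoxa2 again passed at d2.5 and Hoxa10 at d4. Hoxa5 passed at d2.5, Hoxa7 at d3, and Hoxa3 and Hoxa9 at d4, each 1 stage later than in wildtype. Hoxa6 passed only with Gdf11 in Nr6a1-/- cells, as Hoxa11 did, and Hoxa4 at no stage. These stages follow from counts close to the limit of detection. With more than 10 counts required in all libraries, 2 genes (Hoxa5 and Hoxa9) appeared later in Nr6a1-/- cells and 1 earlier, Hoxa2 (d2.5 against d3 in wildtype), while Hoxa7 passed at d3 in both. With more than 3 counts required in only 2 of the 3 libraries, 3 genes (Hoxa3, Hoxa5 and Hoxa7) appeared later, Hoxa9 passed at d3 in both genotypes, Hoxa6 and Hoxa10 at d3 in both, and Hoxa4 at d4 in both. After thinning of all libraries to the smallest total, 3 genes (Hoxa3, Hoxa7 and Hoxa9) appeared later, Hoxa5 passed at d2.5 in both genotypes, and Hoxa6 and Hoxa10 passed only with Gdf11.

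**Figure D1:**
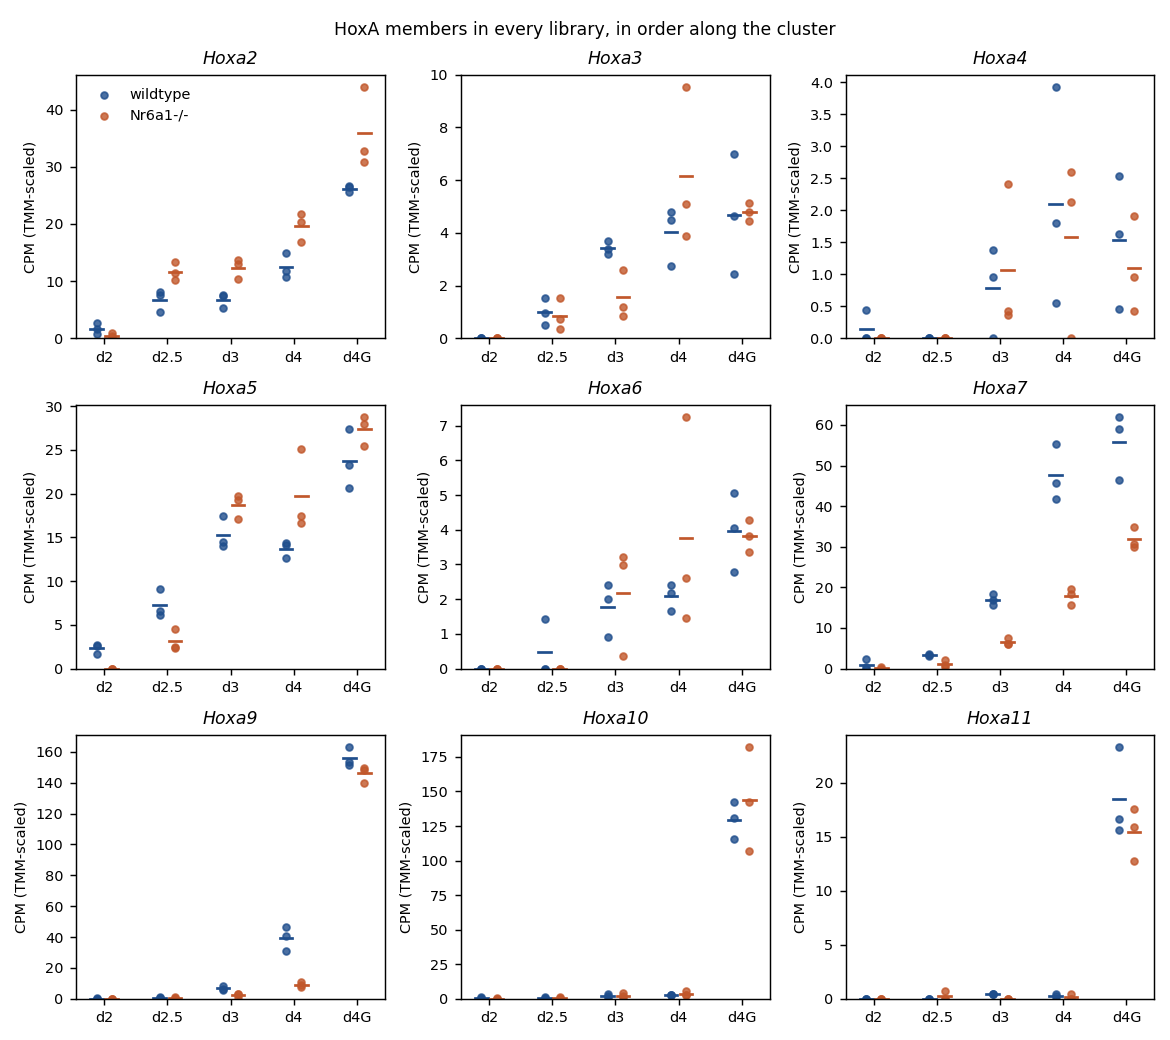
Level of each HoxA gene in every library, in CPM after TMM scaling (vertical axes, each starting at 0 with its own range), by stage, in wildtype (blue) and Nr6a1-/- (orange) cells. Points are libraries and bars are means of 3; Hoxa7 and Hoxa9 lie lower in Nr6a1-/- at d4, and Hoxa10 and Hoxa11 are near 0 until Gdf11 is added.

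As a percent of its own highest group mean in wildtype cells, Hoxa2, which acts in the hindbrain and its neural crest, stood at 25.8% at both d2.5 and d3 and at 47.8% at d4. Hoxa5, a neck and upper thoracic gene, reached 64.4% at d3. Hoxa7, a thoracic gene, moved later, from 5.94% at d2.5 to 30.4% at d3 and 85.4% at d4. The 5′ genes Hoxa9, Hoxa10 and Hoxa11 were lower than Hoxa2, Hoxa5 and Hoxa7 at every stage without Gdf11. Hoxa9, which acts across the trunk, was at 4.42% at d3 and 25.2% at d4, Hoxa10, a lumbar gene, at 2.12% at d4 and Hoxa11, a sacral and limb gene, at 1.33%. In Nr6a1-/- cells the values at d4 were 54.8% for Hoxa2, 71.9% for Hoxa5, 56.2% for Hoxa7, 6.28% for Hoxa9, 2.57% for Hoxa10 and 0.922% for Hoxa11.

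**Figure D2:**
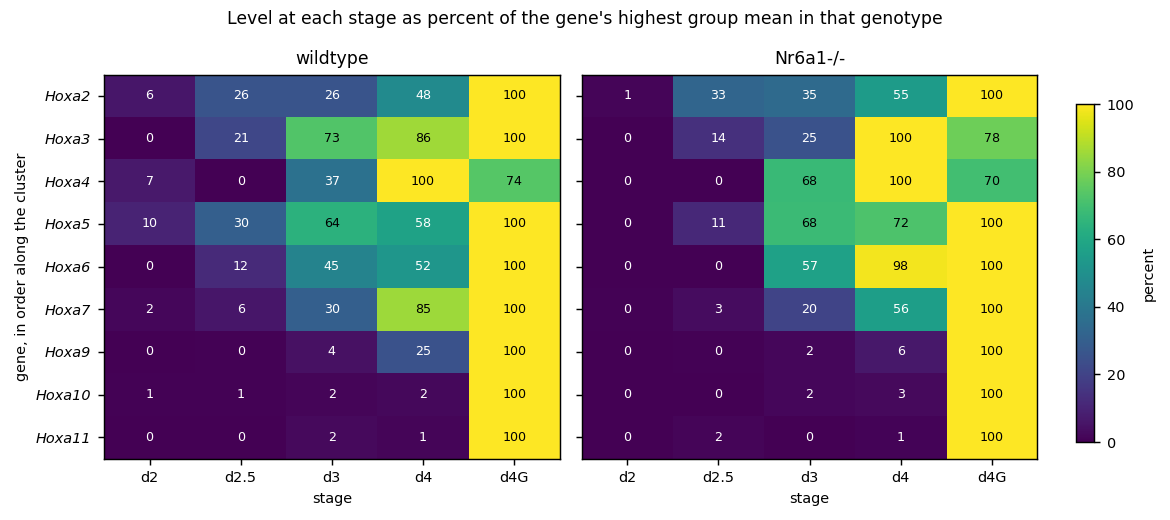
Mean level of each gene (rows, in cluster order) at each stage (columns) as a percent of that gene's highest group mean in the same genotype, with wildtype on the left and Nr6a1-/- on the right. Hoxa9, Hoxa10 and Hoxa11 sit at 25.2% or less at every stage without Gdf11; Hoxa3, Hoxa4 and Hoxa6 rest on few counts.

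The steps between stages were tested in each genotype. From d2 to d2.5, the first 12 h of Wnt activation, 4 of the 7 tested members were called in wildtype cells (25.4% of all tested genes were called). These were Hoxa2, Hoxa3, Hoxa5 and Hoxa7, all upwards. The call of Hoxa7 (log2 difference 1.51, FDR = 0.0485) held in 3 of 12 alternatives. Hoxa2 counts in the wildtype libraries went from 2 to 6 at d2 to 9 to 17 at d2.5 (log2 difference 2.08, SE 0.425, FDR = 0.000312). Without d2 wildtype replicate 1 or 2, or without d2.5 wildtype replicate 3, the number called was 2. In Nr6a1-/- cells 3 genes were called (24.1% of all), Hoxa2, Hoxa3 and Hoxa5, again upwards. The calls of Hoxa3 rest on few counts. It went from 0 to 6 counts in all in wildtype and from 0 to 7 in Nr6a1-/- libraries. With the d2 group set at 3 counts in all, this is at least 2.34-fold and 2.10-fold higher. Hoxa3 held no more than 3 counts in some d2.5 libraries, and its calls in this step were not followed through the alternatives. All 3 Nr6a1-/- libraries held 0 counts of Hoxa5 at d2 and 6 to 13 at d2.5, which is at least 7.80-fold higher at d2.5 when the d2 group is set at 3 counts in all.

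From d2.5 to d3 the called genes moved up the cluster in both genotypes. They were Hoxa5, Hoxa7 and Hoxa9 in wildtype cells (3 genes, with 11.5% of all genes called) and the same symbols in Nr6a1-/- cells (3 genes, 15.9% of all called). Hoxa2 did not pass in this step, with log2 differences of 0.01 (95% interval -0.63 to 0.64) in wildtype and 0.09 (-0.38 to 0.56) in Nr6a1-/- cells. Hoxa7 in wildtype cells went from 3.31 ± 0.248 to 16.9 ± 1.35 CPM (log2 difference 2.34, SE 0.327, FDR = 2.48e-06). Hoxa9 went from 0.656 ± 0.257 to 6.89 ± 1.32 CPM (log2 difference 3.30, SE 0.537, FDR = 3.81e-05). In Nr6a1-/- cells the Hoxa9 libraries of the 2 stages overlapped (log2 difference 1.97, SE 0.615, FDR = 0.0244).

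From d3 to d4, with no Gdf11, Hoxa2, Hoxa7 and Hoxa9 were called in wildtype cells (3 genes, 21.1% of all called) and Hoxa2, Hoxa3, Hoxa7 and Hoxa9 in Nr6a1-/- cells (4 genes, 25.9% of all called), each upwards. Hoxa7 changed by nearly the same amount in both, with log2 differences of 1.48 (SE 0.191) in wildtype and 1.45 (SE 0.265) in Nr6a1-/- cells. The same number, 3, was called in wildtype cells without d4 wildtype replicate 2, with log2 differences of 1.00 for Hoxa2, 1.58 for Hoxa7 and 2.64 for Hoxa9. The difference between the changes of Hoxa7 in the 2 genotypes was -0.03 (95% interval -0.84 to 0.79). No member was called for a difference between genotypes in this step by edgeR (0 genes, 5.72% of all called), and 1 member, Hoxa3, had an unadjusted p under 0.05. DESeq2 also called 0.

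The genotype comparison, which asks what the loss of Nr6a1 does at each stage, differed along the cluster. At d2 1 gene was called (4.07% of all tested genes), Hoxa5. Its counts were 5 to 6 in the wildtype libraries and 0 in each Nr6a1-/- library, which is at least 5.60-fold lower in Nr6a1-/- with that group set at 3 counts in all (FDR = 0.000481). At d2.5 Hoxa5 was again the 1 gene called (6.45% of all). Hoxa5 read 9.05, 6.10 and 6.58 CPM in the wildtype and 2.30, 4.55 and 2.5 CPM in the Nr6a1-/- libraries, without overlap. It was 2.29-fold lower in Nr6a1-/- (log2 difference -1.20, SE 0.320, FDR = 0.0174), but was not called without d2.5 wildtype replicate 1 (FDR = 0.159), without Nr6a1-/- replicate 1 (FDR = 0.0872) or without Nr6a1-/- replicate 3 (FDR = 0.0851). Hoxa7 was lower in mean (1.09 ± 0.940 against 3.31 ± 0.248 CPM) and was not called (FDR = 0.0917).

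By d3 the Hoxa5 difference was no longer seen. The libraries read 14.5, 17.5 and 14 CPM in wildtype and 19.3, 17.1 and 19.7 CPM in Nr6a1-/- cells, which overlap, and the log2 difference was 0.29 (95% interval -0.11 to 0.69, FDR = 0.397). The change of Hoxa5 from d2 to d3 differed between genotypes (FDR = 0.00063), and Hoxa5 was the 1 member called for this (2.27% of all genes called). Without d2 wildtype replicate 3 or Nr6a1-/- replicate 1 the number was 2. The fitted size of this difference depends on how the 0 counts at d2 are handled and is not a bound.

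At d3 and d4 the same pattern held at both stages, with Hoxa2 higher and Hoxa7 and Hoxa9 lower in Nr6a1-/- cells (3 genes at each stage, with 10.8% of all genes called at d3 and 18.9% at d4). Hoxa2 at d3 read 5.31, 7.37 and 7.60 CPM in wildtype and 10.4, 13.7 and 13 CPM in Nr6a1-/- libraries. All Nr6a1-/- libraries lay above all wildtype libraries. The level was 1.81-fold higher at d3 (log2 difference 0.86, SE 0.266, FDR = 0.0319) and 1.56-fold higher at d4 (log2 difference 0.64, SE 0.210, FDR = 0.0276). These are the least stable of the calls. Hoxa2 remained called in 6 of 13 alternatives at d3 (FDR 0.0141 to 0.140) and in 5 of 13 at d4 (FDR 0.0190 to 0.144), and DESeq2 gave 0.0573 and 0.0604. It was higher in Nr6a1-/- cells in each of these alternatives. Leaving out any single library at d3 other than Nr6a1-/- replicate 1, or any at d4 other than wildtype replicate 3 and Nr6a1-/- replicate 1, ended the call.

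Hoxa7 at d3 read 18.3, 15.7 and 16.8 CPM in wildtype and 7.63, 5.99 and 5.95 CPM in Nr6a1-/- libraries, and at d4 55.4, 41.7 and 45.6 against 19.5, 18.4 and 15.8 CPM. The groups did not overlap at either stage. The Nr6a1-/- level was 2.58-fold lower at d3 (log2 difference -1.37, SE 0.268, FDR = 0.000495) and 2.63-fold lower at d4 (log2 difference -1.40, SE 0.190, FDR = 5.81e-07). Hoxaas3, which overlaps its 3′ end on the opposite strand, was also lower in Nr6a1-/- at d2.5 (1.83 against 5.72 CPM, FDR = 0.00383), d4 (317 against 422 CPM, log2 difference -0.41) and d4G (238 against 372 CPM, log2 difference -0.64), and was higher at d3 (213 against 168 CPM, FDR = 0.0242). The part of antisense reads in the Hoxa7 values was not tested.

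Hoxa9 at d4 read 46.6, 30.7 and 40.5 CPM in wildtype and 9.10, 7.74 and 10.7 CPM in Nr6a1-/- libraries, so that the lowest wildtype value was well above the highest Nr6a1-/- value. The Nr6a1-/- level was 2.72-fold lower at d3 (log2 difference -1.44, SE 0.374, FDR = 0.00891) and 4.18-fold lower at d4 (log2 difference -2.06, SE 0.204, FDR = 1.10e-09). At d3 the call was lost without wildtype replicate 3 (FDR = 0.0725) or Nr6a1-/- replicate 2 (FDR = 0.0749), and without either of these libraries Hoxa7 was the 1 member called. Without d4 wildtype replicate 2, the library with the epiblast markers, the log2 difference at d4 was -2.24 for Hoxa9 and -1.50 for Hoxa7. Hoxa2 was then at 0.51 and no longer called (FDR = 0.144).

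The other members showed no called difference at d4. Hoxa5 read 12.6, 14.4 and 14.1 CPM in wildtype and 25.1, 17.4 and 16.6 CPM in Nr6a1-/- libraries, without overlap, with a log2 difference of 0.52 (95% interval 0.13 to 0.91, FDR = 0.0554). Hoxa10 averaged 3.70 ± 1.68 CPM in Nr6a1-/- against 2.75 ± 0.285 CPM in wildtype cells (log2 difference 0.45, 95% interval -0.61 to 1.51, FDR = 0.599). Its interval lay above that of its neighbour Hoxa9 (-2.48 to -1.65). Hoxa11 had 2 counts in all in wildtype and 1 in Nr6a1-/- libraries, which leaves the ratio between 0.0117 and 13.2 (exact 95% binomial interval, counting error only).

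**Figure D3:**
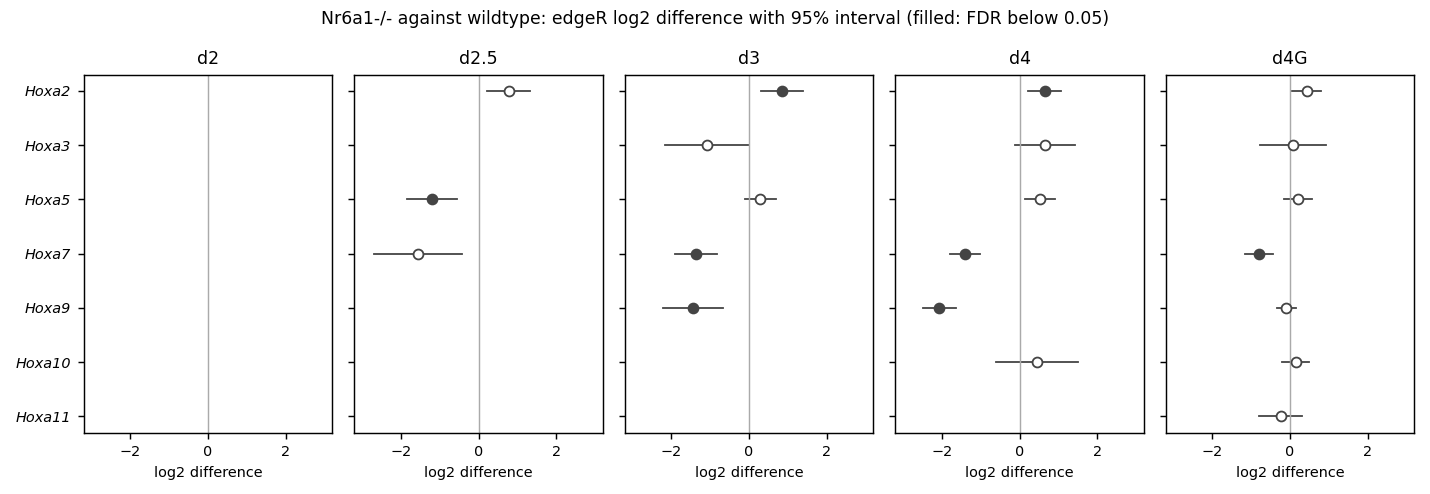
Log2 difference of Nr6a1-/- against wildtype (horizontal axis, below 0 is lower in Nr6a1-/-) at each stage for the tested HoxA genes in cluster order; points are edgeR estimates, lines their 95% intervals and filled points have FDR below 0.05. Genes with too few counts in both groups, or with 0 counts in 1 of them (Hoxa5 at d2), are not drawn; Hoxa7 and Hoxa9 are filled below 0 at d3 and d4, and Hoxa2 above 0.

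After Gdf11 1 member was called between genotypes (7.90% of all genes), Hoxa7. It read 61.9, 58.9 and 46.4 CPM in wildtype and 30.8, 29.9 and 34.7 CPM in Nr6a1-/- libraries, without overlap, and was 1.74-fold lower in Nr6a1-/- (log2 difference -0.80, SE 0.177, FDR = 0.00218). Hoxa9, with means of 156 ± 6.07 (wildtype) and 146 ± 5.28 CPM (Nr6a1-/-), did not overlap either (151 to 163 against 140 to 150 CPM), but the log2 difference was only -0.09 (95% interval -0.35 to 0.16, FDR = 0.767). Hoxa10 (log2 difference 0.14, -0.20 to 0.48) and Hoxa11 (-0.24, -0.79 to 0.31) were not called. Hoxa2 read 25.6, 26.4 and 26.6 CPM in wildtype and 32.7, 43.9 and 30.9 CPM in Nr6a1-/- libraries, and did not pass (log2 difference 0.43, FDR = 0.168).

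The response to Gdf11 itself, d4G against d4, is a description for Hoxa10 and Hoxa11, the members nearest the 5′ end. They passed the filter on low counts only through the d4G groups, where they are high, and held at most 13 and 2 counts in any library without Gdf11, so that their calls below follow in part from how they were admitted. In wildtype cells 5 members were called (28.8% of all genes), Hoxa2, Hoxa5, Hoxa9, Hoxa10 and Hoxa11, and in Nr6a1-/- cells 5 (18.0% of all), Hoxa2, Hoxa7, Hoxa9, Hoxa10 and Hoxa11, all upwards. The 2 comparisons share no library. Without d4 wildtype replicate 2, 5 members were again called in wildtype cells, with log2 differences of 0.94 for Hoxa2, 0.81 for Hoxa5, 1.84 for Hoxa9, 5.48 for Hoxa10 and 5.49 for Hoxa11. Hoxa10 read 3.05, 2.49 and 2.70 CPM at d4 and 115, 131 and 143 CPM at d4G in wildtype cells, and 5.63, 2.90 and 2.56 against 182, 143 and 107 CPM in Nr6a1-/- cells. It was 47.1-fold higher in wildtype (log2 difference 5.56, SE 0.276) and 38.1-fold higher in Nr6a1-/- (5.25, SE 0.279).

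Hoxa11 went from 2 counts in all to 37 to 50 counts per library in wildtype cells, a ratio of 84.7 (exact 95% binomial interval 23.0 to 707), and from 1 count in all to 20 to 41 per library in Nr6a1-/- cells, a ratio of 106 (18.5 to 4217). Hoxa9 rose 4.02-fold in wildtype (log2 difference 2.01, SE 0.138) and 15.8-fold in Nr6a1-/- cells (3.98, SE 0.182). The 3′ members changed less. Hoxa2 was 2.08-fold higher with Gdf11 in wildtype and 1.80-fold in Nr6a1-/- cells, and Hoxa5 was 1.72-fold (FDR = 0.00144) and 1.39-fold (FDR = 0.0721) higher. Hoxa7 was called only in Nr6a1-/- cells (1.79-fold, FDR = 0.00334, against 1.18-fold, FDR = 0.280, in wildtype).

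The test of the difference between genotypes in this response called 1 member (2.66% of all genes), Hoxa9. Its response was larger in Nr6a1-/- cells by 1.97 on the log2 scale (SE 0.243, FDR = 1.98e-06), from d4 levels that differed and d4G levels that nearly met. The difference was called in 19 of 19 alternatives, from 1.85 to 2.14. For Hoxa7 the difference was 0.60 (95% interval 0.07 to 1.13, FDR = 0.260). For Hoxa10 it was -0.31 (-1.40 to 0.79) and for Hoxa11 0.18 (-2.01 to 2.37), from few counts at d4.

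**Figure D4:**
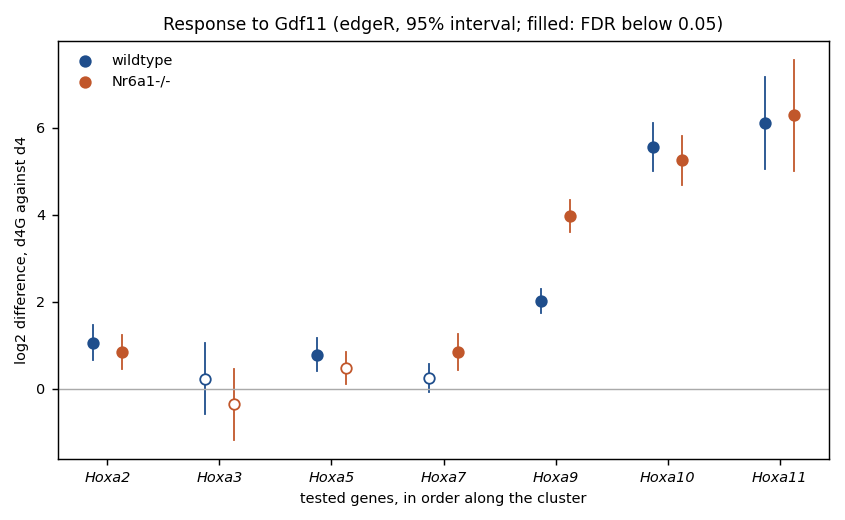
Log2 difference of d4G against d4 (vertical axis) for the tested HoxA genes in cluster order, in wildtype (blue) and Nr6a1-/- (orange) cells; points are edgeR estimates with 95% intervals, filled where FDR is below 0.05. Hoxa10 and Hoxa11 rise by similar amounts in both genotypes, and Hoxa9 by 2.01 in wildtype and 3.98 in Nr6a1-/- cells.

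The make-up of the HoxA counts of a library restates the counts tested above and is no separate evidence. It is a share, which adds counts across genes and so moves for 1 gene when another changes. At d4 Hoxa9, Hoxa10 and Hoxa11 held 33.8% ± 2.05 (SD, n = 3) of the counts of the 9 genes in wildtype and 15.8% ± 0.956 in Nr6a1-/- libraries, a difference of -18.0 percentage points (exact permutation test, 2-sided, p = 0.1, the smallest that 3 against 3 allows). The difference was -19.1 percentage points without d4 wildtype replicate 2. Most of these d4 counts were of Hoxa9, with 353 in all in wildtype and 62 in Nr6a1-/- libraries. Hoxa10 had 25 in each genotype, so the d4 difference is that of Hoxa9 and not of the 5′ genes as a group. At d3 the shares were 17.2% ± 0.916 and 10.1% ± 4.38 (p = 0.1 by the same exact test). After Gdf11 they were 72.4% ± 1.05 and 74.3% ± 2.75 (exact permutation p = 0.4). The 3′ genes Hoxa2, Hoxa3 and Hoxa4 held a larger share in Nr6a1-/- cells at d2.5, d3, d4 and d4G (exact permutation p = 0.1 at each). At d4 it was 33.6% ± 1.66 against 14.9% ± 1.71 in wildtype, and at d2.5 69.3% ± 10.5 against 38.2% ± 4.27. At d2 a Nr6a1-/- library held only 1 or 2 counts of the 9 genes, so its shares carry no information.

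**Figure D5:**
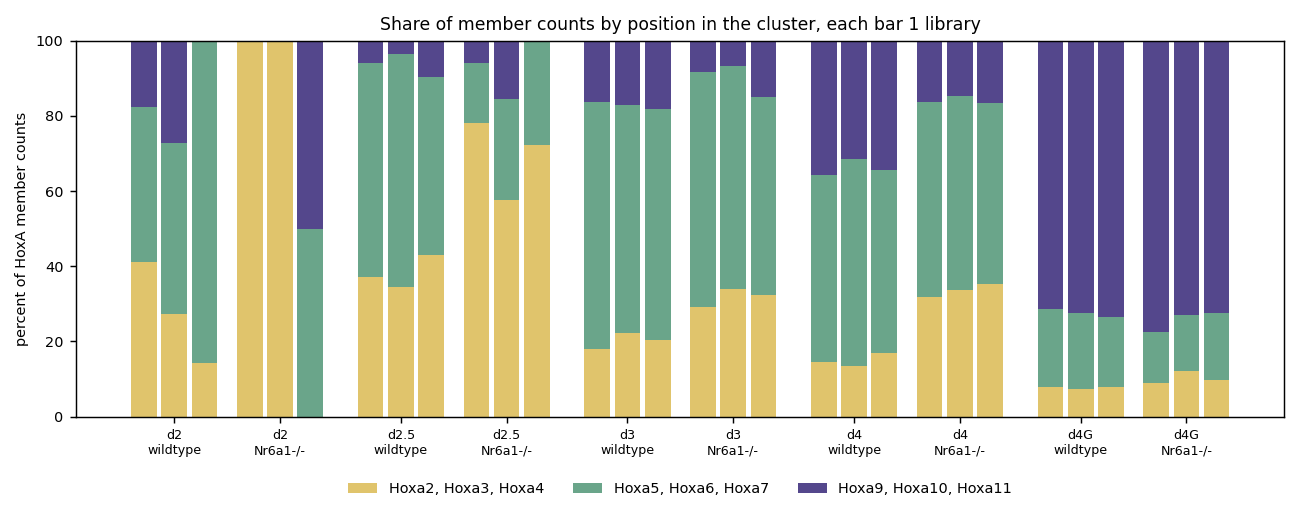
Percent of the counts of the 9 HoxA genes held by Hoxa2 to Hoxa4, Hoxa5 to Hoxa7 and Hoxa9 to Hoxa11 (stacked, vertical axis), each bar 1 library, by stage and genotype. At d4 the share of Hoxa9 to Hoxa11 is 31.6% to 35.6% in wildtype and 14.8% to 16.6% in Nr6a1-/- libraries, and after Gdf11 it is above 70% in all 6; the d2 bars of Nr6a1-/- rest on 1 or 2 counts.

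The genes with few counts are given as sums over 3 libraries. Hoxa4, a neck gene, had 17 counts at d4 in wildtype and 11 in Nr6a1-/- cells, a ratio after scaling of 0.890 (exact 95% binomial interval 0.377 to 2.01). Hoxa6, a thoracic gene, had 19 and 26 counts (ratio 1.88, 1.00 to 3.60), of which 17 came from 1 Nr6a1-/- library. At d2.5 Hoxa4 had 0 counts in either genotype, and Hoxa6 had 3 counts in 1 wildtype library and 0 in the other libraries. At d3 Hoxa6 had 12 counts in wildtype and 16 in Nr6a1-/- cells (ratio 1.20, 0.531 to 2.77). In Nr6a1-/- cells this is at least 5.86-fold higher than at d2.5, with the d2.5 group set at 3 counts in all. Hoxa3, a neck and pharyngeal gene, was tested. At d3 it read 3.38, 3.68 and 3.2 CPM in wildtype and 1.20, 0.855 and 2.60 CPM in Nr6a1-/- libraries, without overlap and without a call (log2 difference -1.08, SE 0.531, FDR = 0.217). It did not change with Gdf11 beyond its error in either genotype, with log2 differences of 0.23 (95% interval -0.59 to 1.05) in wildtype and -0.36 (-1.17 to 0.45) in Nr6a1-/- cells.

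Other transcripts of the locus were read from a list of which 10 were found in the table and 7 were tested. At d4 4 were called (18.9% of all tested genes were called), Hotairm1 (42.0 against 15.7 CPM, log2 difference 1.41) and the neighbouring gene Skap2 (115 against 81.4 CPM) higher in Nr6a1-/-, and Hoxaas3 and Evx1, a homeobox gene beyond the 5′ end (14.1 against 23.4 CPM), lower. When d4 wildtype replicate 2 was left out, 2 were higher and 2 lower. Hotairm1 was also higher in Nr6a1-/- at d3 (log2 difference 0.56) and d4G (1.08). At d2 Hotairm1 had 1 count in each Nr6a1-/- library and 6 to 13 counts in the wildtype libraries. With Gdf11, Hoxa11os, antisense to Hoxa11, had 29 to 45 counts in wildtype and 33 to 62 in Nr6a1-/- libraries, from 0 or 1 at d4. Hoxa13, the last gene of the cluster, had 2 counts over the wildtype d4G libraries and 11 over the Nr6a1-/- ones, a ratio of 6.42 (exact 95% binomial interval 1.40 to 59.6, counting error only).

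The paralogues of groups 2 to 11 in the other clusters (18 genes, 17 tested) gave a comparison across loci. At d4, 5 were lower in Nr6a1-/- and 0 higher, where 18.9% of all tested genes were called, with a median log2 difference of 0.04 against 0.02 over all tested genes. Without d4 wildtype replicate 2, 5 were lower and 0 higher, with 15.1% of all called. The 5 were Hoxb6, Hoxc6, Hoxb9, Hoxc9 and Hoxd9, so the tested paralogues of group 9 were lower at d4, as Hoxa9 was. Hoxb9 read 33.8 CPM in Nr6a1-/- and 89.1 CPM in wildtype cells (log2 difference -1.39) and Hoxc9 17.1 and 59.9 CPM (-1.78). After Gdf11 the group 9 genes parted. Hoxb9, like Hoxa9, was not called (log2 difference -0.25, FDR = 0.440), while Hoxc9 (-1.59, FDR = 1.84e-11) and Hoxd9 (-0.79, FDR = 0.00135) were still lower. Group 10 and 11 genes also parted, with Hoxc10 lower (-1.60), Hoxc11 (1.18) and Hoxd11 (0.84) higher, and Hoxd10 (0.23, FDR = 0.581), Hoxa10 and Hoxa11 not called. Hoxb9 was the 1 paralogue called for a difference between genotypes in the Gdf11 response (1.15, SE 0.221, FDR = 0.00127).

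The lists of genes known to act on Hox clusters are read against the 18.9% of all tested genes called at d4 and their median log2 difference of 0.02. The Cdx, Wnt and T list (10 genes, all tested) had 6 higher and 1 lower in Nr6a1-/- at d4, with a median log2 difference of 0.55. Cdx1 was higher (343 against 160 CPM, log2 difference 1.10), Cdx4 lower (51.3 against 129 CPM, -1.33) and Cdx2 not called (-0.09, FDR = 0.637). In the retinoid list (8 genes, 7 tested) 4 were higher and 0 lower at d4, among them Aldh1a2, which makes retinoic acid, at 376 against 12.0 CPM. The Gdf11 pathway list (11 genes, all tested) also held Lin28a and Lin28b, which are not parts of the signalling pathway itself. In it 4 were higher at d4, namely Acvr1b, Smad3, Smad4 and Lin28a (log2 difference 0.35), and 2 were lower. The endogenous Gdf11 transcript was one of the lower, at 71.2 against 233 CPM (log2 difference -1.72). Smad7, a feedback inhibitor induced by the pathway, was the other (2.24 against 9.96 CPM) and rose with Gdf11 in both genotypes, by 1.60 in wildtype and 3.84 in Nr6a1-/- cells on the log2 scale. The Polycomb and trithorax list (15 genes, all tested) had 2 higher and 1 lower at d4, a share close to that of all genes, with a median log2 difference of 0.13. Without d4 wildtype replicate 2, when 15.1% of all genes were called, 5 were higher and 1 lower in the Cdx, Wnt and T list, 3 and 0 in the retinoid list, 4 and 2 in the Gdf11 pathway list and 2 and 0 in the Polycomb and trithorax list.

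The cofactors that Hox proteins bind DNA with, the TALE family of Pbx, Meis and Pknox genes (9 genes, all tested), had 7 higher and 1 lower in Nr6a1-/- at d4, with a median log2 difference of 0.64, where 18.9% of all tested genes were called. With d4 wildtype replicate 2 left out, 6 were higher and 1 lower. Pbx3 was at 38.4 against 15.1 CPM and Pbx4, the lower one, at 5.25 against 10.3 CPM. After Gdf11 2 were higher and 0 lower, with 7.90% of all genes called. The 3 genes that moved most like each tested member over the 10 group means were sought outside the HoxA locus, among 9714 genes. For Hoxa9 they were Hoxd9 (Pearson r = 0.983), Lsp1 (0.982) and Hoxd8 (0.981). For Hoxa10 they were Ski (0.986), Hoxd10 (0.982) and Hoxc10 (0.980). For Hoxa11 they were Hoxd10 (0.993), Capn15 (0.989) and Emilin1 (0.986). Hoxa10 and Hoxa11 were near 0 without Gdf11, so their r rests mainly on the d4G groups. For Hoxa3 the first was Haglr (0.981), a transcript of the HoxD locus. For Hoxa2 (Scd2, 0.976), Hoxa5 (Ube2d-ps, 0.976) and Hoxa7 (Mllt3, 0.982) it was a gene outside the Hox clusters.

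Marker lists moved with genotype and with Gdf11. Summed over 6 endoderm markers, d4 libraries held 66.9 to 72.4 CPM in wildtype and 8.95 to 14.5 CPM in Nr6a1-/- cells, with 2 of the 6, Cer1 and Shh, at 0 in each. The 5 neural progenitor markers summed to 17.7 to 23.5 and 2.60 to 5.11 CPM, with Olig2 at 0 in Nr6a1-/-, and the 5 presomitic mesoderm markers to 380 to 474 and 654 to 715 CPM. In each of these lists 4 markers were tested. At d4, 3 endoderm and 3 neural progenitor markers were called lower in Nr6a1-/-, and 3 presomitic mesoderm markers higher (18.9% of all genes called). Without d4 wildtype replicate 2 these numbers were 3, 1 and 2 (15.1% of all called). The 7 NMP markers summed to 427 to 462 and 431 to 576 CPM at d4, where 3 were called higher and 2 lower in Nr6a1-/- (18.9% of all genes called). With d4 wildtype replicate 2 left out, 3 were again higher and 2 lower. The NMP sums fell with Gdf11 to 305 to 325 and 188 to 216 CPM. In this step 2 markers were called up and 4 down in wildtype (28.8% of all called). In Nr6a1-/- cells 0 were called up and 5 down (18.0% of all called). The sum of the 7 lateral mesoderm and hindlimb markers rose with Gdf11. It went from 17.0 to 27.9 up to 54.4 to 94.9 CPM in wildtype libraries. In Nr6a1-/- libraries it went from 3.87 to 5.20 up to 26.2 to 62.0 CPM. Only 2 of these 7 passed the filter and were tested. At d4G, 1 of the 7 had no count in wildtype and 3 had none in Nr6a1-/- cells, so the sum does not stand for all 7. The 7 fibroblast markers stand for the feeder layer of the stem cells, which the paper states was depleted before differentiation. They summed to at most 74.8 CPM in any library, and the cells that gave these counts are not known. The part of these cell types in the HoxA differences was not tested.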

How the data were processed

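The authors deposited raw counts per gene and library from 3′ libraries primed at the poly(A) tail, aligned with STAR; the submitters' processing notes name the build mm10. The counter, its annotation, its use of strand and the collapsing of molecular identifiers are not given in the sources used here. Tables of the authors' own comparisons (fold changes, p-values and FDR) were not used. Counts were analysed in R 4.3.3 with edgeR 4.0.16: a gene was kept where 2 or more libraries of 1 group each exceeded both 10 counts and 2 CPM (12149 of 54134), and counts were scaled by TMM and fitted in 1 quasi-likelihood model of the 10 groups (20 residual degrees of freedom), with contrasts called at a Benjamini-Hochberg FDR below 0.05 over all genes tested. Members and lists were chosen with earlier results of these data known. Member results are reported where a compared group held more than 3 counts in every library, and interactions for the Gdf11 response or where called. Hoxa3 for d2.5 against d2 did not meet this and is named as part of the number called. Genes most like a member were ranked by Pearson's r of log2(CPM + 1) group means, among genes with at least 10 CPM in a group. Intervals of pooled counts cover counting error only. Alternatives were other scaling, DESeq2 1.42.0, no filter, thinning, only the libraries compared, a replicate block and leaving out each library. The gene lists at d4 without wildtype replicate 2 were added after seeing the data. In the simulated d3 genotype comparison on 12149 genes, 77% of 100 genes changed by 1 and 93% of 100 changed by 2 (log2) were recovered, and 6.08% of calls were false.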

Additional observations from a re-analysis of the deposited data

Results flagged for a closer look

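The response of Hoxa9 to Gdf11 differed between genotypes by 1.97 on the log2 scale (95% interval 1.48 to 2.46, FDR = 1.98e-06), larger in Nr6a1-/- cells. All 3 Nr6a1-/- libraries lay below all 3 wildtype libraries at d4, and the groups lay within 1.07-fold of each other in mean after Gdf11.

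The change of Hoxa5 from d2 to d3 differed between genotypes by a fitted 5.77 on the log2 scale (FDR = 0.00063). This size is no bound, since Hoxa5 had 0 counts in each Nr6a1-/- library at d2 and 5 to 6 in each wildtype library.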

How the results depend on the processing

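Of 927 alternative values of 69 member results, 863 kept their direction and side of the threshold, 38 lost a call, 5 gained one and 21 changed sign, 0 of these for a called result. The number of members called between genotypes at d2.5 was 0 without the filter, after thinning and with only the libraries compared, and 0 to 1 with a library left out. At d2 it was 0 with only the libraries compared. Hoxa5 held at most 6 counts in a d2 library, so it did not pass the filter there and was not tested. It was called at d2 in 12 of the 12 alternatives that tested it. For d2.5 against d2 it was 2 after thinning or with only the libraries compared, and 2 to 3 with a library left out, in wildtype cells, and 1 with only the libraries compared in Nr6a1-/- cells. For d3 against d2.5 in Nr6a1-/- cells it was 6 without the filter. These included Hoxa6 (FDR = 0.000302) and Hoxa4 (FDR = 0.0398), which were tested only without the filter and rest on few counts. With a library left out the number called was 1 to 3 between genotypes at d3 and 1 to 2 for the difference between genotypes in d3 against d2. The cause of the other changes was not tested.

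The replicate numbers did not pair the libraries (correlations of deviations -0.11 to 0.17 over 13 comparisons, of which 0 were paired). With the replicate block Hoxa3 was called for d3 against d2.5 in wildtype cells (1.75, FDR = 0.0393), so that 4 members in place of 3 were called, and no other call changed.

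Signs that changed belonged to uncalled log2 differences. Hoxa2 for d3 against d2.5 in wildtype cells was -0.012 without normalization factors, -0.12 after thinning and -0.0022 with only the libraries compared. Hoxa5 for d4 against d3 was -0.0050 without factors in Nr6a1-/- cells and 0.00043 after thinning in wildtype cells. With a library left out, the ranges were -0.19 to 0.16 (wildtype) and -0.0020 to 0.21 (Nr6a1-/-) for Hoxa2 from d2.5 to d3, -0.15 to 0.19 for Hoxa5 from d3 to d4 in Nr6a1-/- cells, -0.15 to 0.56 (wildtype) and -0.58 to 0.10 (Nr6a1-/-) for Hoxa3 with Gdf11 and -0.27 to 0.45 for Hoxa3 between genotypes at d4G. For Hoxa10 they were -0.0086 to 0.67 between genotypes at d4, -0.070 to 0.32 at d4G and -0.52 to 0.15 for the difference in Gdf11 response, which for Hoxa11 was -0.28 to 2.13.

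The depth limits the early stages most, since at d2 a library held at most 17 counts of the 9 genes.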
